A study of Mus musculus with 6 samples.

Results

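Of the 54532 genes counted in these lungs, 10 were taken that make or sense leukotrienes and related lipoxygenase products. They were taken by symbol. They are the phospholipase *Pla2g4a*, the lipoxygenases *Alox5*, *Alox12* and *Alox15*, the activating protein *Alox5ap*, the enzymes *Lta4h* and *Ltc4s*, and the receptors *Ltb4r1*, *Cysltr1* and *Fpr2*. Each symbol matched 1 gene.

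Leukotrienes are lipid mediators that leukocytes make from arachidonic acid. Cytosolic phospholipase A2 frees the acid from membranes, and arachidonate lipoxygenase, held at the nuclear envelope by its activating protein, turns it into the unstable leukotriene A4. Leukotriene A4 hydrolase then gives leukotriene B4, a strong attractant of neutrophils, while leukotriene C4 synthase gives the cysteinyl leukotrienes, known in the lung for airway constriction and vessel leak. Other lipoxygenases give hydroxy acids and lipoxins, which are linked to the end of inflammation and of which one is sensed through *Fpr2*.

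Lungs of 3 GRdim/dim and 3 GR+/+ mice were compared. GRdim/dim mice carry, in every cell, the germline allele Nr3c1tm3Gsc, a point mutation by which the glucocorticoid receptor (GR) dimerizes poorly. GR+/+ mice were littermates of the same 129/SvEv x C57BL/6 background. All mice of the study, of both genotypes, were 10 to 16 weeks old. Sequenced were 2 female and 1 male GR+/+ and 1 female and 2 male GRdim/dim mice. All 6 were anesthetized with sevoflurane, ketamine, midazolam and fentanyl and ventilated. All bled to a pressure of 35 mmHg for 1 h, got their blood back and were resuscitated for 4 h with colloids and norepinephrine. No lung without shock was sequenced, so the values describe the genotypes after shock only.

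Each mouse gave 1 library of poly(A) RNA from lung tissue, and the libraries held between 15687734 and 32082940 counted reads. Levels are given as CPM, counts scaled to a library of 1000000 reads after TMM scaling. Of the 11 lung markers *Scgb1a1* and *Sftpc* were the most abundant, at 19696 and 11358 CPM on average in GR+/+ lungs, and all 11 passed the filter on low counts. No pair of libraries of the same genotype was alike within sampling noise. GRdim/dim replicate 1 stood apart in neutrophil markers, summed over 10 genes to 1175 CPM, where the other 5 libraries had 281 to 546 CPM.

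All 10 genes passed the filter on low counts (edgeR's filterByExpr), with between 9 reads (*Alox15*) and 1483 reads (*Lta4h*) in a library. None was called as different between the genotypes. A gene was called where edgeR (quasi-likelihood fit, 16568 genes tested) gave a Benjamini-Hochberg adjusted p below 0.05 with a log2 fold change beyond 0.5, and 0.169% of the genes met this. DESeq2 called 0 of the 10 as well, against 1.70% of its 16150 genes. At an unadjusted p under 0.05 in edgeR's test, 3 of the 10 stood out (*Alox5ap*, *Ltb4r1* and *Fpr2*, each with a higher mean in GRdim/dim lungs), where 9.60% of all genes did.

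For none of the 10 genes were the genotypes fully apart, although the libraries did not overlap for 14.8% of all genes. Fold changes were above 0 for 8 of the 10 genes and for 50.9% of all genes. Their median log2 fold change was 0.34, against 0.00645 over all genes tested. These shares describe genes of 1 pathway, which are not independent of each other, and no test was made of them. In tissue RNA, a larger number of cells of a type and more RNA per cell cannot be told apart.

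**Figure D1:**
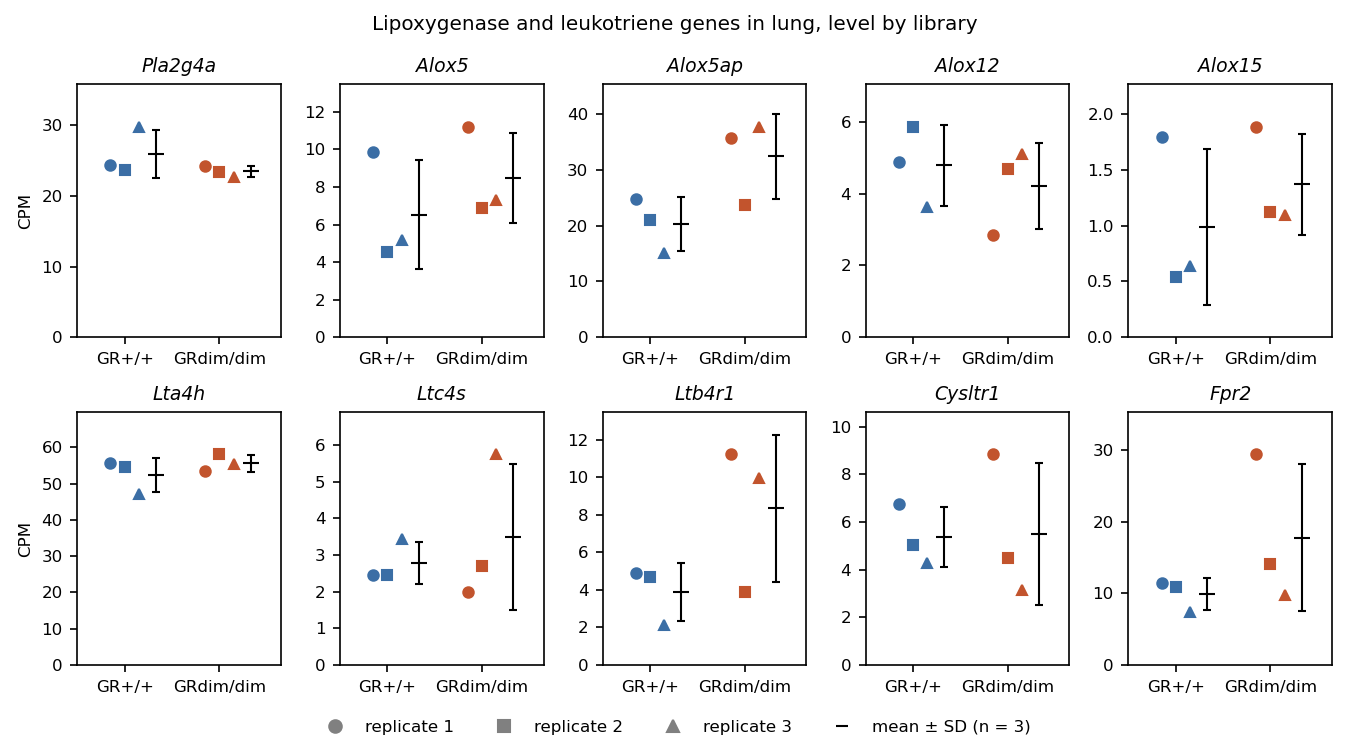
CPM (vertical axis, from 0) of the 10 genes in the 3 GR+/+ (blue) and 3 GRdim/dim (red) libraries, with the mean ± SD of each genotype in black and the replicate by its marker. In every panel at least 1 GRdim/dim library lies within the GR+/+ range.

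**Figure D2:**
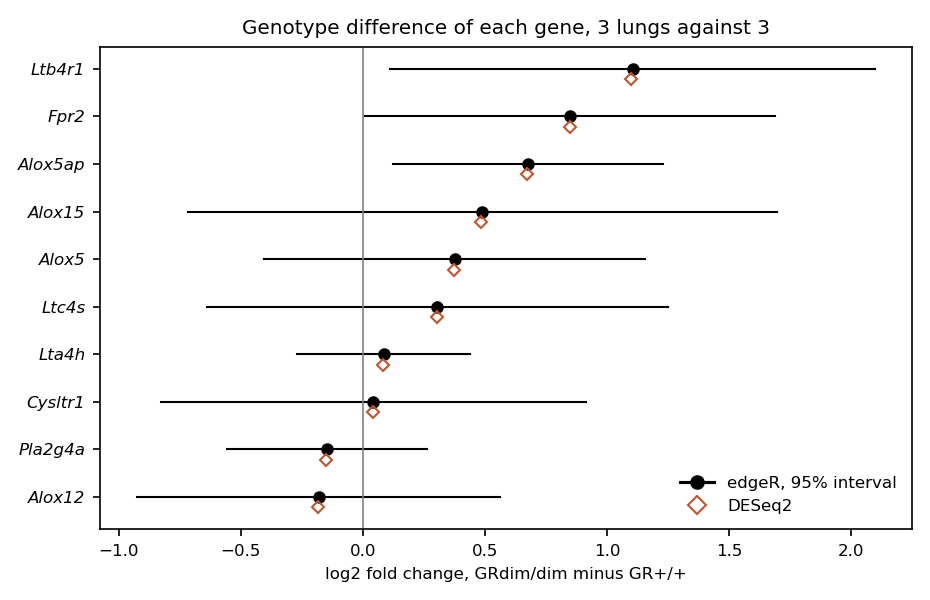
Log2 fold change of each gene, GRdim/dim minus GR+/+, from edgeR with its 95% interval (black) and from DESeq2 (open red). The intervals of *Ltb4r1*, *Alox5ap* and *Fpr2* lie above 0 before adjustment, and the other 7 span it.

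Promoters from RefSeq (GRCm38.p6), 250 bases before to 50 after a start, were found for 7 of the 10 genes, with none for *Alox5ap*, *Alox15* and *Cysltr1*. They were searched on both strands for AGAACA, the core to which 1 GR molecule binds, for the AP-1 site TGACTCA, for the PU.1 site GAGGAAGT of myeloid genes and for the TATA box TATAAA. Of the 32851 promoters, 19.0% held the first, 5.20% the second, 3.20% the third and 13.6% the fourth. The sequences of *Ltb4r1* (chr14:55765712-55766011, plus strand) and *Fpr2* (chr17:17887574-17887873, plus strand) are shown because these genes, with *Alox5ap*, differed most. That of *Alox12* (chr11:70255321-70255620, minus strand) is shown because it holds a GR core. Capitals mark matches.
Ltb4r1: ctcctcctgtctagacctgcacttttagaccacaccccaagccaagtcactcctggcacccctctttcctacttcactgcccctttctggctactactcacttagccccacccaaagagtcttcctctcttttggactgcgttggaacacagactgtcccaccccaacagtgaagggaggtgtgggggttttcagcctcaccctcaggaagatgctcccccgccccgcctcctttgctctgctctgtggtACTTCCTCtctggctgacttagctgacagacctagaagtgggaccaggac
Fpr2: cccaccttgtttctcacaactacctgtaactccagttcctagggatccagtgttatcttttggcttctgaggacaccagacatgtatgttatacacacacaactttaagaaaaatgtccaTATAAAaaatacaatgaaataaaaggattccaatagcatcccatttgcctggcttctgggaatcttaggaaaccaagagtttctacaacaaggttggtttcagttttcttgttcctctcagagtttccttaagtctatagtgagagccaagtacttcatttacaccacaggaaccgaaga
Alox12: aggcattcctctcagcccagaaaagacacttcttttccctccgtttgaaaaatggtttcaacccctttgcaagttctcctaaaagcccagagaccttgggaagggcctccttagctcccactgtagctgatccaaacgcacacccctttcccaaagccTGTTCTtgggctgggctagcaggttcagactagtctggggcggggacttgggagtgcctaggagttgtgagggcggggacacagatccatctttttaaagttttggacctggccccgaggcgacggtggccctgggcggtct

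In *Ltb4r1* the match is a PU.1 site on the strand opposite to the gene that begins at the first transcribed base, and in *Fpr2* it is a TATA box 130 bases before the start. In *Alox12* it is the GR core on the strand opposite to the gene, 92 bases before the start. Another start of *Pla2g4a* held a GR core and a TATA box. No other promoter of the set held a match, and none held the AP-1 site. The *Fpr2* promoter had 39.3% G and C and that of *Lta4h* 60.7%, against a median of 52.7% over all promoters. These matches are letters in a window and say nothing of binding.

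The calcium-dependent phospholipase that supplies arachidonic acid, *Pla2g4a*, is encoded on chromosome 1 (GRCm38, 149829618 to 149961290). Its levels were 24.3, 23.7 and 29.8 CPM in GR+/+ replicates 1, 2 and 3 and 24.2, 23.4 and 22.7 CPM in GRdim/dim replicates 1, 2 and 3. The GRdim/dim libraries lay close together, and 1 of them was above the lowest GR+/+ library. GRdim/dim minus GR+/+, the log2 difference was -0.15 with a standard error (SE) of 0.19 and a 95% interval of -0.56 to 0.27 (edgeR, adjusted p = 0.876).

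*Alox5*, the lipoxygenase of leukotriene synthesis (chromosome 6, 116410077 to 116461178), had 9.86, 4.56 and 5.18 CPM in GR+/+ and 11.2, 6.85 and 7.30 CPM in GRdim/dim lungs. Replicate 1 was the highest of either genotype, and the GR+/+ one lay above the other GRdim/dim libraries. A log2 difference of 0.38 (SE 0.35, edgeR adjusted p = 0.813) became 0.80 without GR+/+ replicate 1 and 0.13 without GRdim/dim replicate 1.

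*Alox5ap* encodes the membrane protein that presents arachidonic acid to this lipoxygenase (ENSMUSG00000060063, chromosome 5, 149264767 to 149288153). It had 24.7, 21.0 and 15.1 CPM in GR+/+ lungs, 20.3 ± 4.85 CPM on average (SD, n = 3). GRdim/dim lungs had 35.7, 23.7 and 37.7 CPM, 32.4 ± 7.58 CPM on average (SD, n = 3). GRdim/dim replicates 1 and 3 were above every GR+/+ library, and replicate 2 lay below GR+/+ replicate 1. On the log2 scale GRdim/dim lungs were 0.68 above GR+/+ (SE 0.25, 95% interval 0.12 to 1.23). edgeR gave 0.0212 as the p before adjustment and an adjusted p of 0.431. DESeq2 gave 0.0129 before and 0.270 after adjustment. An exact permutation test of the means (two-sided) gave p = 0.2, where 3 against 3 lungs allow no less than 0.1. Its value stayed between 0.46 and 0.86 in 12 other fits, of which 6 left out a library. The lowest, 0.46, came with sex-linked expression as a covariate, and the part of sex was not tested further. An antisense gene, *Gm19719*, shares 189 bases of its exons and had 1 to 20 reads in a library, and the use of strand in counting is not given in the sources used here.

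*Alox12*, the lipoxygenase best known from platelets, and *Alox15*, which mouse macrophages and eosinophils use, lie near each other on chromosome 11 (70241457 to 70255353 and 70344152 to 70352031). *Alox12* had 4.90, 5.88 and 3.62 CPM in GR+/+ and 2.86, 4.69 and 5.10 CPM in GRdim/dim lungs, with overlap between the genotypes. A log2 difference of -0.18 (SE 0.34) had an edgeR adjusted p of 0.929. It turned to 0.04 without GRdim/dim replicate 1, the library with the lowest level. Summed markers of platelets, 8 genes, had 19.2 to 29.5 CPM in GR+/+ and 32.3 to 39.9 CPM in GRdim/dim lungs (exact permutation p = 0.1, the smallest possible). *Gp1bb*, 1 of the 8, had no read in any library, while the other 7 had reads in every library. Of the 7 tested, 4 were above and 3 below 0. *Pf4* had 5.38 CPM on average in GR+/+ and 13.4 CPM in GRdim/dim lungs. It was the 1 of the 7 without overlap (14.8% of all genes) and the 1 called by DESeq2 (1.70% of all genes). Its adjusted p was 0.0148 by DESeq2 and 0.244 by edgeR, which called 0. Without *Pf4* the sums overlapped, at 12.7 to 24.3 and 17.5 to 25.05 CPM (a sum added after the data were seen). The part of platelets in the *Alox12* level was not tested.

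*Alox15* was the scarcest of the 10, with 30, 9 and 20 reads in GR+/+ and 35, 27 and 17 reads in GRdim/dim lungs. In CPM these were 1.79, 0.540 and 0.635 against 1.89, 1.12 and 1.10. GR+/+ replicate 1 stood with GRdim/dim replicate 1, far above the other GR+/+ libraries. The 0.49 by which GRdim/dim lungs were higher in log2 had an SE of 0.54 (edgeR adjusted p = 0.848) and was 1.21 without GR+/+ replicate 1 and 0.20 without GRdim/dim replicate 1. At this depth neither a doubling nor equal levels lay outside its 95% interval of -0.71 to 1.70. Of the 6 eosinophil markers *Siglecf* alone passed the filter on low counts, with 3.37 CPM on average in GR+/+ and 4.22 CPM in GRdim/dim lungs. *Siglecf* is also in the list of alveolar macrophage markers, so its level is not one of eosinophils alone. The other 5 had genotype means of at most 0.507 CPM, and the part of eosinophils in the *Alox15* level was not tested.

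*Lta4h*, the hydrolase that makes leukotriene B4, was the most counted gene of the set (chromosome 10, 93453411 to 93484875). It had 55.5, 54.6 and 47.1 CPM in GR+/+ and 53.3, 58.0 and 55.3 CPM in GRdim/dim lungs. All libraries but GR+/+ replicate 3 lay within a few CPM of each other. With a log2 difference of 0.09 (SE 0.16, edgeR adjusted p = 0.930), the 95% interval was -0.27 to 0.44.

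*Ltc4s*, the synthase of the cysteinyl branch (chromosome 11, 50236461 to 50238616), had 2.45, 2.46 and 3.43 CPM in GR+/+ and 1.99, 2.70 and 5.75 CPM in GRdim/dim lungs. The lowest and the highest library were both GRdim/dim. In log2, 0.31 separated the means (SE 0.43, edgeR adjusted p = 0.896), which became -0.25 without GRdim/dim replicate 3. The antisense gene *Gm26542* overlaps 268 bases of its exons and had 6 to 42 reads in a library, against 37 to 108 for *Ltc4s*. Without a stated use of strand, their reads cannot be told apart.

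*Ltb4r1*, the high-affinity receptor of leukotriene B4 on neutrophils and other leukocytes (ENSMUSG00000046908, chromosome 14, 55765962 to 55768494), had the largest fold change of the 10. Its levels were 4.90, 4.68 and 2.13 CPM in GR+/+ lungs, or 3.90 ± 1.54 CPM (SD, n = 3). GRdim/dim lungs had 11.2, 3.86 and 9.95 CPM, or 8.34 ± 3.93 CPM (SD, n = 3). GRdim/dim replicates 1 and 3 were above all GR+/+ libraries, while replicate 2 lay among them. On the log2 scale GRdim/dim lungs were 1.11 above GR+/+ (SE 0.45, 95% interval 0.11 to 2.10). edgeR gave 0.0325 as the p before adjustment and an adjusted p of 0.471. DESeq2 gave 0.00999 before and 0.232 after adjustment, and the exact permutation test gave p = 0.3. Without GRdim/dim replicate 2 the log2 difference was 1.46 (edgeR adjusted p = 0.307, and 0.0716 to 0.791 over its 12 other fits). With sex-linked expression as a covariate it was 0.60. The sexes are not equally shared between the genotypes, and the part of sex in this difference was not tested further.

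*Fpr2*, a receptor for formyl peptides, annexin A1 and lipoxin (ENSMUSG00000052270, chromosome 17, 17887824 to 17893952), rested on 1 library. It had 11.5, 10.9 and 7.40 CPM in GR+/+ and 29.4, 14.1 and 9.82 CPM in GRdim/dim lungs. GRdim/dim replicate 1 was far above all others, replicate 2 slightly above the GR+/+ range and replicate 3 within it. On the log2 scale GRdim/dim lungs were 0.85 above GR+/+ (SE 0.38, 95% interval 0.01 to 1.69). edgeR gave 0.0477 as the p before adjustment and an adjusted p of 0.511. DESeq2 gave 0.0196 before and 0.331 after adjustment, and the exact permutation test gave p = 0.3. Without GRdim/dim replicate 1 it was 0.29 (edgeR adjusted p = 0.804, and 0.0992 to 0.804 over its 12 other fits). Related genes hold 43.0% of its windows of 31 bases, of which *Gm5966* holds 37.6% of all windows. No counts were found under the symbol *Gm5966*. The reads of *Fpr2* are therefore uncertain.

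*Cysltr1*, the main receptor of leukotriene D4 (chromosome X, 106574346 to 106603679), had 6.75, 5.04 and 4.29 CPM in GR+/+ and 8.84, 4.49 and 3.16 CPM in GRdim/dim lungs. The GRdim/dim libraries spanned the whole GR+/+ range on either side. The means were 0.04 apart in log2 (SE 0.39, edgeR adjusted p = 0.984), or -0.47 without GRdim/dim replicate 1, and the 95% interval ran from -0.83 to 0.91.

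Levels of different genes can be compared only per length, here as CPM per kilobase of exon. In GR+/+ lungs *Alox5ap* led with 14.3 ± 3.41 (SD, n = 3), followed by *Lta4h* with 8.59 ± 0.754 and *Fpr2* with 7.65 ± 1.69. *Pla2g4a* had 4.06 ± 0.526, *Ltb4r1* 2.80 ± 1.10 and *Ltc4s* 2.74 ± 0.556 on the same scale. *Alox5* had 1.59 ± 0.706, *Alox12* 1.17 ± 0.277, *Cysltr1* 1.04 ± 0.246 and *Alox15* 0.403 ± 0.284.

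Within this order, *Lta4h* and *Fpr2* lay within their spread of each other, and so did *Pla2g4a* and *Ltb4r1*, *Ltb4r1* and *Ltc4s*, *Ltc4s* and *Alox5*, *Alox5* and *Alox12*, and *Alox12* and *Cysltr1*. In GRdim/dim lungs *Alox5ap* again led, with 22.8 ± 5.34 (SD, n = 3). There *Fpr2* with 13.7 ± 7.96 stood before *Lta4h* with 9.11 ± 0.387, and *Ltb4r1* with 5.98 ± 2.82 before *Pla2g4a* with 3.67 ± 0.116, though both pairs overlapped in their spread.

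**Figure D3:**
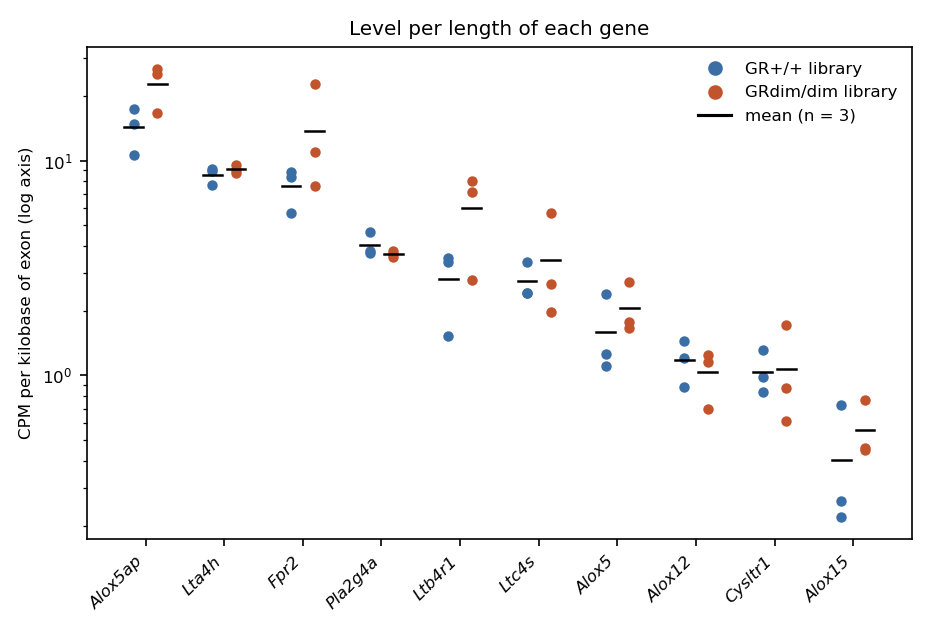
CPM per kilobase of exon (log axis) of the 10 genes, in the order of their GR+/+ mean, with 1 point a library and a line at the mean of each genotype. *Alox5ap* lies highest and *Alox15* lowest in both genotypes, at GR+/+ means of 14.3 and 0.403.

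GRdim/dim replicate 1 had the highest level of the 6 libraries for 5 of the 10 genes and the lowest for 2. GR+/+ replicate 3, the deepest library, had the lowest level for 4 genes and the highest for 1. Neutrophil markers, summed over 10 genes, had 281 to 546 CPM in GR+/+ and 380 to 1175 CPM in GRdim/dim lungs (exact permutation p = 0.4). Their sum was also highest in GRdim/dim replicate 1 and lowest in GR+/+ replicate 3. The sum of mast cell and basophil markers had its extremes in the same libraries, at 301 and 115 CPM. *S100a9* and *S100a8* were the most abundant neutrophil markers over all 6 libraries. They had 107 and 83.4 CPM on average in GR+/+ and 207 and 199 CPM in GRdim/dim lungs. *Csf3r*, the next, had 91.3 and 112 CPM. Of the 9 neutrophil markers tested 8 were above 0 (50.9% of all genes), 3 had an unadjusted p below 0.05 (9.60% of all genes), edgeR called 0 and DESeq2 called 2 (1.70% of all genes), both higher. The part of neutrophils in the levels of *Fpr2*, *Ltb4r1* and *Alox5ap* was not tested. In GRdim/dim replicate 3, whose *Alox5ap* and *Ltb4r1* levels were above the GR+/+ range, the sum of 507 CPM was within that range, and 5 of the 10 markers were above it, among them *S100a9* at 167 CPM and *S100a8* at 132 CPM. In GRdim/dim replicate 1 this held for 9 of the 10 markers and in replicate 2 for 2. Other lists also had markers above the GR+/+ range in GRdim/dim replicate 1. These were 6 of 8 for mast cells and basophils, 6 of 8 for monocytes, 3 of 8 for T cells and 3 of 9 for alveolar macrophages.

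Markers of other leukocytes were measured beside the set. T cell markers (8 genes, led by *Lck* and *Trac*) summed to 22.6 to 42.4 CPM in GR+/+ and 43.8 to 59.5 CPM in GRdim/dim lungs. Of these, edgeR called 0, 4 had an unadjusted p below 0.05 (9.60% of all genes), all higher in GRdim/dim lungs, DESeq2 called 1 (1.70% of all genes) and 3 did not overlap (14.8% of all genes). Their sum did not overlap between genotypes (exact permutation p = 0.1, the smallest possible), and it was highest in GRdim/dim replicate 2, where *Alox5ap* and *Ltb4r1* lay within the GR+/+ range. B cell markers (7 genes) summed to 23.8 to 51.7 CPM in GR+/+ and 51.3 to 76.5 CPM in GRdim/dim lungs, a slight overlap. All 7 were above 0 (50.9% of all genes), 4 had an unadjusted p below 0.05 (9.60% of all genes) and 2 did not overlap (14.8% of all genes). Neither edgeR nor DESeq2 called any (0.169% and 1.70% of all genes). The part of these lymphocytes in the levels of the set was not tested.

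Platelet markers were led by *Itga2b* and *Pf4*. Monocyte markers (8 genes, led by *Ace* and *Nr4a1*) had 1175 to 2331 and 1207 to 2366 CPM. Most of this sum was *Ace*, at 1473 CPM on average in GR+/+ and 807 CPM in GRdim/dim lungs, while the other 7 were above 0. *Nr4a1* had 157 and 540.0 CPM without overlap. Its GRdim/dim replicates 1, 2 and 3 had 274.5, 992.0 and 353.4 CPM, so the GRdim/dim mean rested mostly on replicate 2. GRdim/dim replicate 1 lay only slightly above the highest GR+/+ library. Among the 8 monocyte markers, 2 did not overlap (14.8% of all genes), both higher in GRdim/dim lungs. An unadjusted p below 0.05 was found for 3 (9.60% of all genes), 2 of them higher. Both edgeR and DESeq2 called 0 of the 8 (0.169% and 1.70% of all genes). The part of monocytes was not tested. Alveolar macrophage markers (9 genes, led by *Car4* and *Chil3*) had 517 to 595 and 506 to 613 CPM. These leading genes moved in opposite directions. *Chil3* had 253 CPM on average in GR+/+ and 138 CPM in GRdim/dim lungs without overlap, and DESeq2 called it (adjusted p = 0.0171). *Car4* had 186 and 307 CPM, with overlap. Of the 9, 3 were above and 6 below 0, edgeR called 0 and DESeq2 called 1 (1.70% of all genes). The part of alveolar macrophages was not tested. Mast cell and basophil markers (8 genes, led by *Kit* and *Cpa3*) had 115 to 244 and 173 to 301 CPM. Most of this sum was *Kit*, at 196 CPM on average in GR+/+ and 215 CPM in GRdim/dim lungs. All 5 tested were above 0 (50.9% of all genes). Of these, 1 had an unadjusted p below 0.05 (9.60% of all genes) and did not overlap (14.8% of all genes), and edgeR and DESeq2 called 0. The part of mast cells was not tested. Eosinophil markers (6 genes, led by *Siglecf* and *Prg2*) had 3.42 to 5.46 and 4.91 to 7.02 CPM. *Siglecf* was counted in both this list and that of alveolar macrophages. *Ace*, *Kit* and *Car4* are also expressed by lung endothelial cells. The exact permutation test of the summed list gave p = 0.9 for alveolar macrophages, 0.7 for mast cells and basophils and 0.4 for eosinophils.

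**Figure D4:**
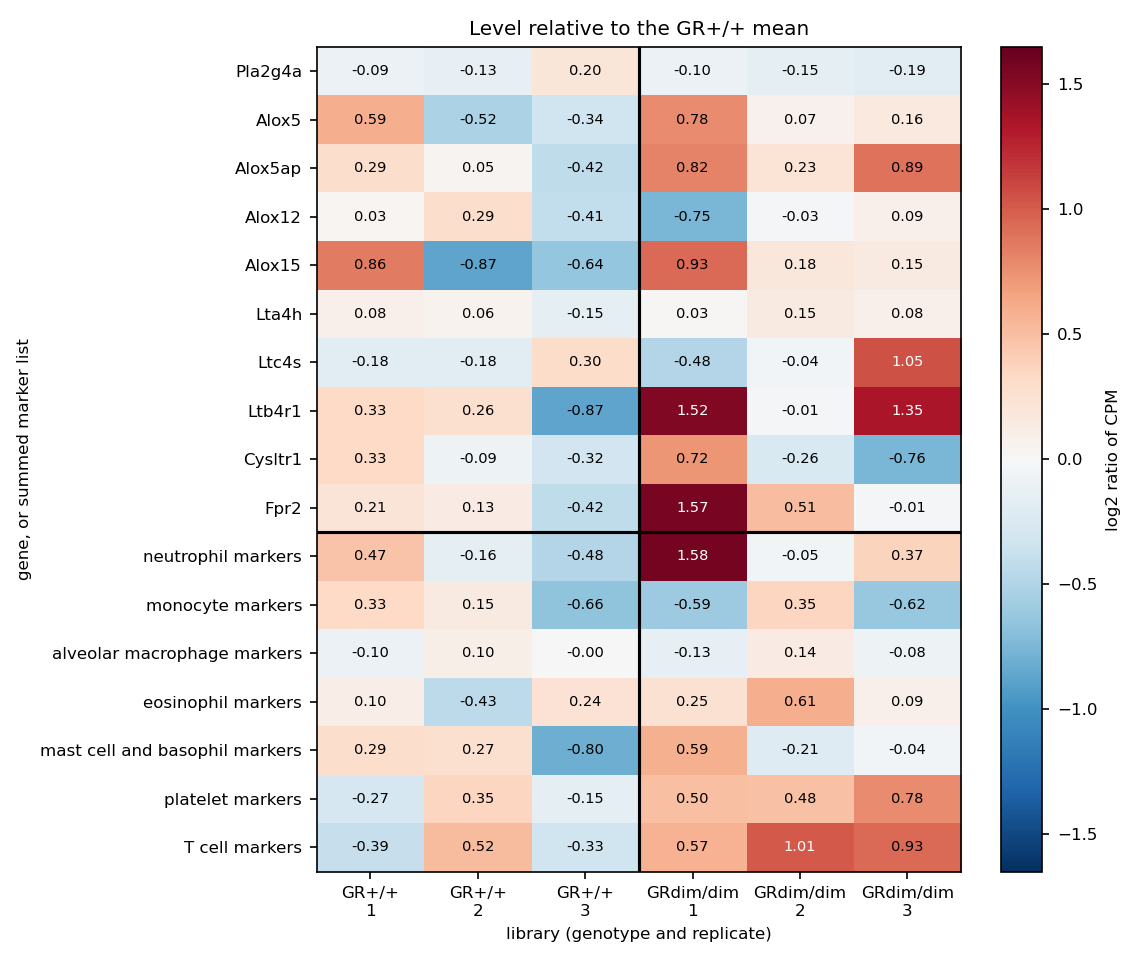
Log2 ratio of each library's CPM to the GR+/+ mean, for the 10 genes (above the line) and for summed leukocyte and platelet markers (below it), with red for higher and blue for lower. GRdim/dim replicate 1 reaches 1.57 for *Fpr2*, 1.52 for *Ltb4r1* and 1.58 for neutrophil markers.

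Other genes of the pathway, 59 in all, were taken by role. Of these, 38 passed the filter on low counts and 7 had no read in any library. edgeR called 0 of the 38, and 5 had an unadjusted p under 0.05, 2 of them higher and 3 lower in GRdim/dim lungs, where 9.60% of all genes had one. DESeq2 called 2, both higher, where it called 1.70% of all genes. By direction, 20 were above and 18 below 0, with a median log2 fold change of 0.01. Among the 38, the genotypes were fully apart for 2 higher and 3 lower genes, where 14.8% of all genes were apart in either direction.

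Among genes of leukotriene breakdown, *Cyp4f18*, a cytochrome P450 that hydroxylates leukotriene B4 in mouse neutrophils, differed most. It had 8.55, 7.55 and 4.29 CPM in GR+/+ and 13.4, 19.4 and 19.2 CPM in GRdim/dim lungs. Every GRdim/dim library was above every GR+/+ library. In log2 they were 1.36 higher (SE 0.30), with an adjusted p of 0.152 by edgeR and of 0.00228 by DESeq2, which called it. *Ephx1*, the most abundant of this role per length, had a log2 fold change of -0.35 (adjusted p = 0.666 from edgeR).

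In the cysteinyl branch, *Dpep1*, a dipeptidase that converts leukotriene D4 to E4, had 248, 236 and 161 CPM in GR+/+ and 116, 162 and 105 CPM in GRdim/dim lungs. GRdim/dim replicate 2 was above the lowest GR+/+ library by a small margin. In log2 the difference was -0.75 (SE 0.23), and the adjusted p was 0.320 by edgeR and 0.0986 by DESeq2. *Ggt5*, which splits glutamate from leukotriene C4, had 0.54 (SE 0.22, edgeR adjusted p = 0.484), with no overlap between genotypes. The glutathione transferases *Mgst3* and *Mgst1* had -0.50 and 0.0045, with adjusted p = 0.609 and 0.998 from edgeR.

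Among phospholipases, *Pla2g4b* had a log2 fold change of -1.27 from 1.02 ± 0.104 to 0.405 ± 0.191 CPM without overlap (SD, n = 3 each, adjusted p = 0.457 from edgeR). *Pla2g7*, which breaks down platelet-activating factor, had 0.64 (adjusted p = 0.576 from edgeR). *Gpr17*, a relative of the cysteinyl leukotriene receptors, had -0.74 without overlap of the genotypes, and *Gpr18*, a lipid receptor of leukocytes, 0.67 (adjusted p = 0.471 and 0.593 from edgeR). *Cmklr1*, *Abcc1* and *Cotl1*, the most abundant per length of the other receptors, the transporters and the lipoxygenase partners, had -0.41, -0.22 and -0.09, with adjusted p of 0.853, 0.773 and 0.944 from edgeR.

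Of the protein ligands of *Fpr2*, *Anxa1*, a known glucocorticoid-induced gene, had 375 ± 59.9 CPM in GR+/+ and 417 ± 95.1 CPM in GRdim/dim lungs (SD, n = 3 each). In log2 the difference was 0.15 (SE 0.22, edgeR adjusted p = 0.903). *Camp*, the gene of cathelicidin in neutrophil granules, was too low for edgeR's filter, with 3, 0 and 5 reads in GR+/+ and 13, 96 and 6 reads in GRdim/dim libraries. DESeq2 called it (adjusted p = 0.0121), with most reads in 1 library. *Fpr1*, the relative of *Fpr2*, had -0.02 (adjusted p = 0.993 from edgeR).

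**Figure D5:**
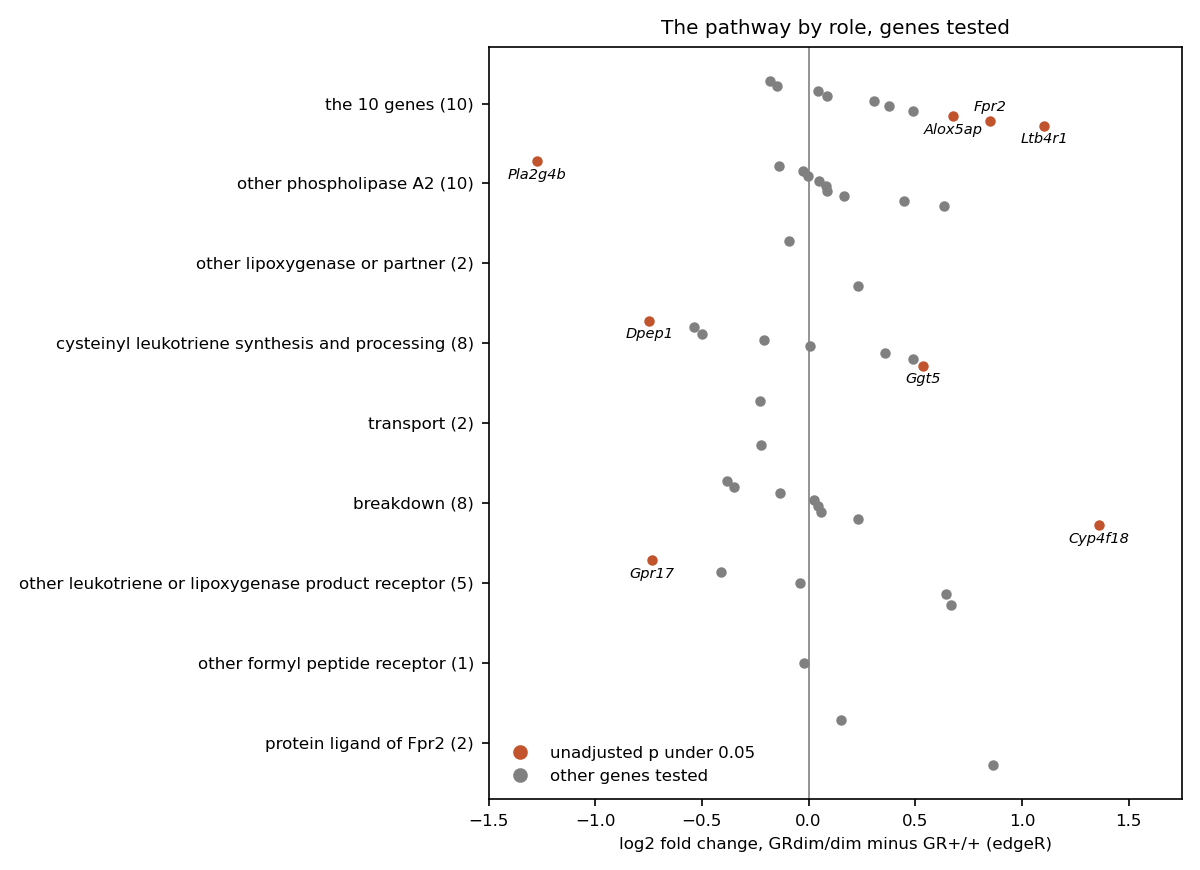
Log2 fold change (GRdim/dim minus GR+/+, edgeR) of the 10 genes and of the 38 other pathway genes tested, in rows by role with the number tested in brackets. Red points have an unadjusted p under 0.05, and the farthest is *Cyp4f18* at 1.36.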

How the data were processed

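RNA was isolated from lung tissue with Trizol and captured by poly(A), per the labels. The authors deposited raw read counts per Ensembl gene for the 6 libraries, not normalized or pooled. Build mm10 and DESeq2 are named in the submitters' processing notes. The aligner, counter and use of strand are not given in the sources used here. Coordinates, strand and exon length of the 10 genes were identical to GENCODE M21 (GRCm38).

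Tests used R 4.3.3 and edgeR 4.0.16 (TMM scaling, filterByExpr, robust glmQLFit, glmQLFTest), and p-values of all 16568 genes were adjusted together (Benjamini-Hochberg). Alternatives were DESeq2 1.42.0 with default settings, RLE scaling, other filters, a replicate block, *Xist* minus Y-linked expression as a covariate, and leaving out each library. edgeR and DESeq2 were checked on simulated data. Exact permutation tests (two-sided) took all 20 assignments of 3 of 6 libraries. Standard errors and 95% intervals come from the edgeR fit. *Dpep2* has more than 1 gene ID, and the one with the most reads was used.

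The genes, the lists and the rules were chosen with earlier results of these data known. Named were all 10 genes, and of the other pathway genes those called by either tool, the 8 with the smallest p and the most abundant per length in each role. Of each marker list but that of B cells the most abundant genes were named, and *Gp1bb* was named for its lack of reads. No B cell marker was named. 1 marker gene is not reported here.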

Additional observations from a re-analysis of the deposited data

How the results depend on the processing

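None of the 10 genes was called in any of the other fits, and of their 119 refitted log2 fold changes 113 kept their direction. Those of *Cysltr1* turned to -0.064 with a replicate block and to -0.13 with the sex-linked covariate, and ran from -0.47 to 0.32 when a library was left out. *Alox12* ran from -0.35 to 0.042 and *Ltc4s* from -0.25 to 0.59 when a library was left out. With the sex-linked covariate the median log2 fold change of the 10 genes was 0.21, in place of 0.34. The cause was not tested. Over all genes, 522 were called without a filter on low counts and 274 by DESeq2, in place of 28, and between 4 (without GR+/+ replicate 2) and 22 (without GRdim/dim replicate 1) when a library was left out. Of the other pathway genes, 3 were called without a filter (*Cyp4f18*, *Dpep1* and *Camp*) and 2 by DESeq2, in place of 0. *Alox15* had under 10 reads in 1 library and gave no value when 10 were asked of every library.

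Same-numbered libraries were not shown to be paired. The correlations of their deviations from the genotype means were 0.218, 0.036 and -0.055, and GRdim/dim replicate 2 correlated best with GR+/+ replicate 3. The replicate block gave 34 genes in all and 0 of the 10. Depth limits *Alox15* most, with 9 to 35 reads in a library.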

Other observations

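Ratios between partners of the pathway, per length and within a library, were computed after the levels had been seen. The ratio of *Alox5ap* to *Alox5*, the activating protein and its lipoxygenase, was 7.26 to 13.3 in GR+/+ and 9.22 to 14.9 in GRdim/dim lungs, so that the former exceeded the latter in every library. The ratio of *Lta4h* to *Ltc4s*, which compete for leukotriene A4, was 2.28 to 3.77 in GR+/+ and 1.60 to 4.44 in GRdim/dim lungs. The ratio of *Ltb4r1* to *Cysltr1*, receptors of the branches that these enzymes feed, was 1.83 to 3.43 in GR+/+ and 3.18 to 11.6 in GRdim/dim lungs, with the highest value in GRdim/dim replicate 3. All 3 ratios overlapped between the genotypes.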
